A study of Mus musculus with 12 samples.

Results

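Hearts of mice infused with angiotensin II (Ang II) and treated with EHP-101 were compared with hearts of mice infused with Ang II and treated with losartan, over every gene with enough reads. The comparison used the 6 libraries of these 2 treatment groups, 3 in each, out of 12 libraries in the series, and the libraries were taken by their labels with no use of measured values. All mice were male C57BL/6 animals of 8 weeks. In both treatment groups a subcutaneous osmotic pump delivered Ang II for 28 days, and treatment was given in the last 2 weeks. EHP-101 was given by mouth at 20 mg/kg, and losartan was dissolved in the drinking water at 0.6 g/L. The remaining groups, used here as reference levels, were 3 libraries of Ang II with vehicle and 3 of control mice. The design names a saline infusion for the control mice, although their sample titles read Ang II control. Poly(A) RNA of the heart was sequenced and reads were counted per gene. Of 47729 annotated genes, 15336 were tested. Levels are given in CPM, the read count of a gene scaled to a common library total, and 3 values in a row belong to replicates 1, 2 and 3 of a group. The labels do not say whether replicates were separate animals. The p-values set group differences against the variation between these libraries, which may not be the variation between animals.

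Ang II is the effector hormone of the renin-angiotensin system. Through the AT1 receptor, which couples to Gq proteins, it constricts vessels, raises blood pressure, enlarges cardiomyocytes and activates fibroblasts that lay down collagen. Losartan occupies the AT1 receptor and so blocks the hormone where it acts. EHP-101 is an oral formulation of a cannabidiol derivative that acts on the nuclear receptor PPARγ, a regulator of lipid storage and inflammation, and on the cannabinoid receptor CB2 of immune cells. The comparison therefore asks where a heart under Ang II differs between a drug on the hormone's own receptor and a drug on other receptors.

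Sequencing depth was even, with 22745721 to 23521895 counts per library under EHP-101 and 22574756 to 23730465 under losartan. Per the labels the tissue was heart, with no region given. Markers of ventricular cardiomyocytes summed to 45727 to 53041 CPM under EHP-101 and 44283 to 48235 CPM under losartan, with none at 0. Markers of atrial tissue were uneven. Taking as score the mean log2 CPM of a list relative to all 12 libraries, the EHP-101 libraries scored -0.35, -1.06 and 0.56 and the losartan libraries -0.93, 0.64 and -2.10, so losartan replicate 3 was lowest. EHP-101 replicate 2 and losartan replicate 1 stood apart in hormone and metabolic genes, and their values are given beside the results they touch. On the first principal component Control replicate 2 had -84.37, against -12.72 to 32.41 for the other 11 libraries, and it entered through the gene filter, the shared estimate of the spread, the scores and the control levels. In whole-heart RNA, fewer cells of a type and less RNA per cell cannot be told apart.

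Most matrix glycoproteins and several stress and metabolic genes had higher fitted levels under EHP-101 than under losartan. Most cell division and class II histocompatibility genes had lower fitted levels. No gene passed the adjusted threshold in edgeR, and many members of these lists overlapped between the groups. Among the genes with the smallest p were Mthfd1l, a mitochondrial enzyme of folate metabolism, with 3.11-fold the losartan level, and Nmrk2, a kinase of NAD synthesis in muscle, with 2.03-fold. On the other side stood Pla2g2d, a secreted phospholipase A2, which was 5.35-fold higher under losartan, and Mme, the peptidase neprilysin, 1.74-fold higher. By the quasi-likelihood test of edgeR, adjusted by the Benjamini-Hochberg method, 0 genes passed an adjusted p of 0.05, which is 0% of those tested, and the lowest adjusted p was 0.0748, of Mthfd1l. At an unadjusted p under 0.05 there were 927 genes, 471 higher under EHP-101 (3.07%) and 456 lower (2.97%). DESeq2 called 26 genes, 23 of them higher under EHP-101 (0.151% of the genes it adjusted) and 3 lower (0.0197%), and limma-voom called 0. All libraries of one group lay above all of the other for 2041 genes, with EHP-101 above in 1008 (6.57%) and below in 1033 (6.74%). Scaled by library size alone, the split at an unadjusted p under 0.05 was 324 higher and 501 lower. The 927 became 1592 without Control replicate 2 (759 higher and 833 lower) and 1671 by limma-voom with quality weights (827 and 844). Without losartan replicate 3 the 471 became 301 and the 456 became 358. Counts over lists in these fits, given below, stand beside these counts over all genes. The median log2 fold change of all tested genes, EHP-101 minus losartan, was 0.00045, and -0.03 with that scaling. Because no gene passed in edgeR, levels below are called higher or lower only as the libraries show them, the fold changes are edgeR's log2 values with SE, and the DESeq2 value stands beside them where it passed.

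Mthfd1l (ENSMUSG00000040675, GRCm38 chromosome 10 from 3973118 to 4167081) makes formate from one-carbon folate units in mitochondria. It had 2.07, 2.48 and 2.23 CPM in the EHP-101 libraries and 0.744, 0.711 and 0.717 CPM in the losartan libraries, with 1.29, 1.45 and 1.24 CPM under Ang II with vehicle and 1.09, 1.02 and 1.13 CPM in control hearts. The lowest EHP-101 library was above every library of the other 3 groups, and the highest losartan library was below all of them. The log2 fold change was 1.64 ± 0.22 (adjusted p = 0.0748 in edgeR and 0.000546 in DESeq2). These levels rest on 49, 53 and 51 reads under EHP-101 and 16, 17 and 17 under losartan. Nmrk2, a muscle kinase that makes NAD from nicotinamide riboside, had 38, 22.1 and 24.5 CPM against 12.3, 13.5 and 15.9 CPM, and EHP-101 replicate 1 was the highest library. Its log2 fold change was 1.02 ± 0.19 (adjusted p = 0.286 in edgeR and 0.00222 in DESeq2). Exons of Nmrk2 share bases with another annotated gene and the kit is unstranded, so its level is uncertain to that extent. Star, which moves cholesterol into mitochondria for steroid synthesis, had 8.04, 6.59 and 7.22 CPM against 4.74, 3.64 and 2.45 CPM with no overlap, and a log2 fold change of 1.02 ± 0.21 (adjusted p = 0.389 in edgeR and 0.0114 in DESeq2). For Nmrk2 and Star the vehicle-treated Ang II mean, 19.2 ± 2.1 and 4.71 ± 0.484 CPM (SD, n = 3), lay between the means of the treated groups.

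Several secreted signals were higher under EHP-101. Frzb (ENSMUSG00000027004, chromosome 2 from 80411970 to 80447625), a secreted antagonist of WNT proteins, had 26.9, 27.9 and 35.2 CPM under EHP-101, 13.6, 14.1 and 8.73 CPM under losartan, 31.5, 21.1 and 42 CPM under Ang II with vehicle and 12.1, 7.27 and 10.6 CPM in control hearts (log2 fold change 1.31 ± 0.26). Clu, the extracellular chaperone clusterin, had 1218, 1274 and 1112 against 666, 801 and 478 CPM (0.89 ± 0.18), and Pthlh, a hormone-like peptide related to parathyroid hormone, 2.24, 2.2 and 2.58 against 1.21, 1 and 1.18 CPM (1.05 ± 0.22). Groups did not overlap for any of these 3 genes, and DESeq2 called Frzb and Clu (adjusted p = 0.00314 and 0.00222) but not Pthlh (0.0971). Clu is also on the atrial marker list. Its losartan levels had the order of the atrial scores and its EHP-101 levels the reverse order. The part of atrial tissue in them was not tested. The ligand Wnt9b, also called by DESeq2, had 3.38, 3.83 and 4.12 against 1.39, 1.21 and 1.52 CPM (1.45 ± 0.34, adjusted p = 0.0313).

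Smad6 (ENSMUSG00000036867, chromosome 9 from 63953076 to 64022059) encodes an inhibitory SMAD that damps BMP and TGF-beta signalling and is itself a target of that signalling. It had 13.4, 14.3 and 12.8 CPM under EHP-101 and 6.83, 7.28 and 7.93 CPM under losartan, against 18, 14.1 and 13.3 CPM under Ang II with vehicle and 11.8, 12.7 and 9.8 CPM in control hearts. All 3 losartan libraries were below the other 9 libraries. The log2 fold change was 0.88 ± 0.15 (adjusted p = 0.196 in edgeR and 0.000822 in DESeq2). Nbl1, a secreted BMP antagonist, had 27.7, 37.8 and 31.8 against 17.9, 21.5 and 17.8 CPM with no overlap (0.76 ± 0.16, adjusted p = 0.014 in DESeq2). Hspa1a, an inducible heat shock protein of the Hsp70 class, had 1.78, 2.81 and 1.31 against 0.604, 0.544 and 0.506 CPM (1.82 ± 0.36, adjusted p = 0.0154 in DESeq2), and its near-identical neighbour Hspa1b 1.86, 1.45 and 1.49 against 0.604, 0.878 and 0.675 CPM. Reads of these copies may have been split by the counting, so each level is uncertain, while both were higher in every EHP-101 library. Klhl29, also among the genes named for the smallest p, had 2.62, 2.2 and 4.16 against 0.883, 1.21 and 0.675 CPM (1.69 ± 0.35, adjusted p = 0.00684 in DESeq2). DESeq2 also called the chitinase-like protein Chil1, with 3.13, 1.64 and 1.62 against 0.697, 0.418 and 0.211 CPM (2.27 ± 0.54), the membrane protein paralemmin, Palm, with 58.1, 54.7 and 61 against 40.2, 42 and 41.9 CPM (0.49 ± 0.11), and the predicted gene Gm12295 with a log2 fold change of 1.17 ± 0.27.

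**Figure D1:**
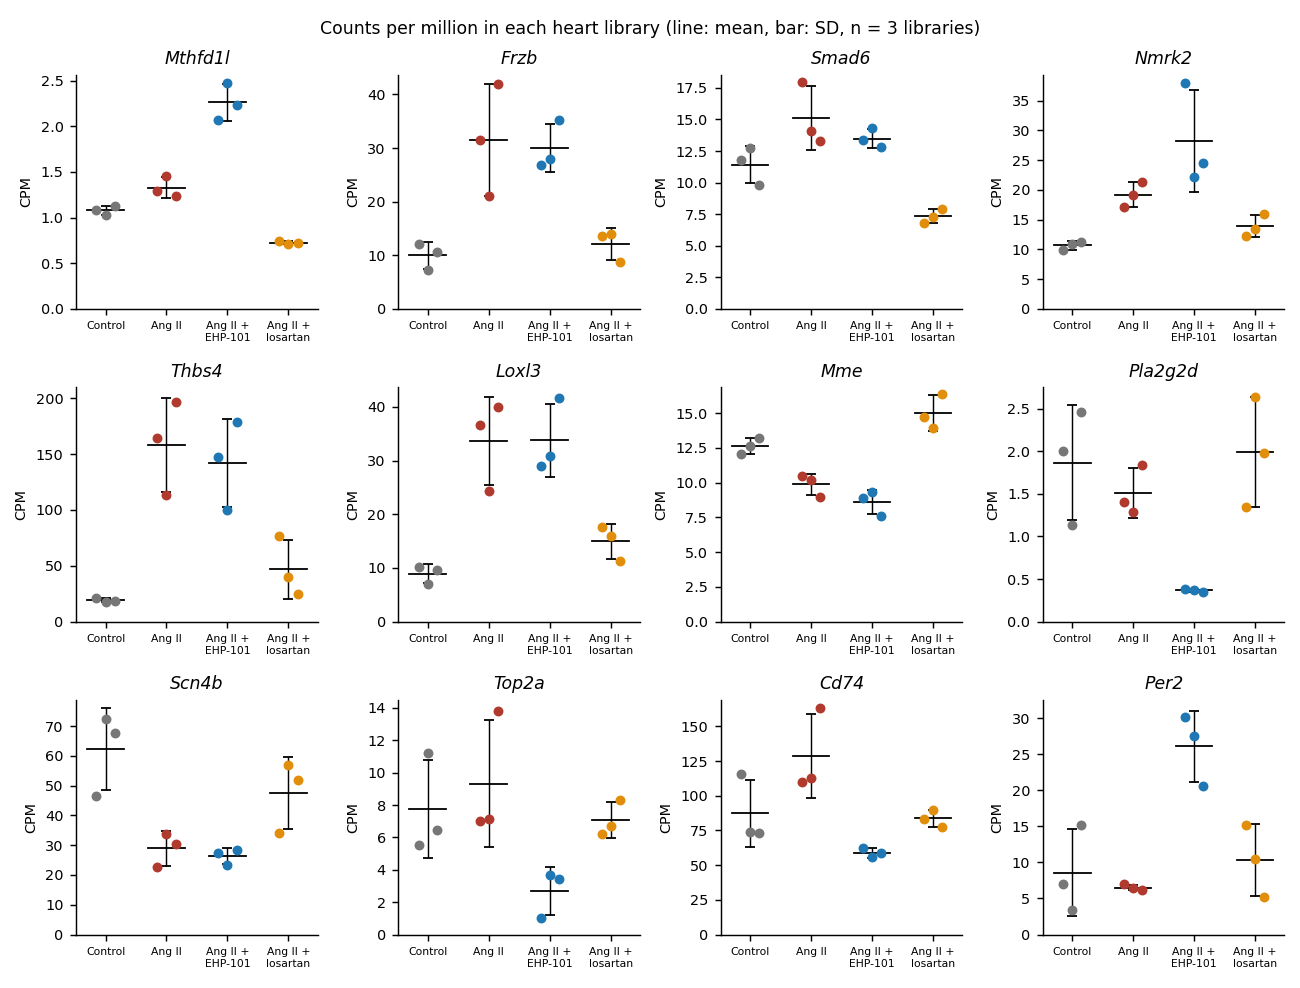
Levels in CPM of 12 genes in each library, one panel a gene, with the groups on the horizontal axis, points for libraries, a line for the mean and a bar for the SD (n = 3). EHP-101 and losartan libraries do not overlap in any panel, with EHP-101 above for Mthfd1l, Frzb, Smad6, Nmrk2, Thbs4, Loxl3 and Per2 and below for Mme, Pla2g2d, Scn4b, Top2a and Cd74.

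Among genes lower under EHP-101, Pla2g2d (ENSMUSG00000041202, chromosome 4 from 138775735 to 138782046) had 0.381, 0.374 and 0.35 CPM, against 1.35, 2.63 and 1.98 CPM under losartan, 1.4, 1.29 and 1.84 CPM under Ang II with vehicle and 2, 1.13 and 2.46 CPM in control hearts. The 3 EHP-101 libraries, with 9, 8 and 8 reads, were below the other 9 libraries, which had at least 21. The log2 fold change was -2.42 ± 0.37 (adjusted p = 0.158 in edgeR and 0.000211 in DESeq2). Mme (ENSMUSG00000027820, chromosome 3 from 63241537 to 63386030) encodes neprilysin, a membrane peptidase that cuts natriuretic peptides and angiotensins. It had 8.92, 9.31 and 7.62 CPM under EHP-101 and 14.7, 13.9 and 16.4 CPM under losartan, with 10.4, 10.2 and 8.99 CPM under Ang II with vehicle and 12, 12.6 and 13.2 CPM in control hearts. Every losartan library was above all the others, and the control libraries lay between the losartan libraries and those of both other Ang II groups. Its log2 fold change was -0.80 ± 0.13 (adjusted p = 0.158 in edgeR and 0.000183 in DESeq2).

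The other 10 genes named as lower had adjusted p values of 0.389 to 0.59 in edgeR. Lcorl, related to a corepressor of nuclear receptors, was the only one of them that DESeq2 called, with 6.98, 6.13 and 6.09 CPM under EHP-101 and 10.6, 9.91 and 9.57 CPM under losartan (-0.65 ± 0.15, adjusted p = 0.0477). Scn4b, a beta subunit of voltage-gated sodium channels, had 27.5, 23.4 and 28.2 CPM under EHP-101, 34, 56.8 and 51.9 CPM under losartan, 22.5, 33.6 and 30.5 CPM under Ang II with vehicle and 46.5, 72.4 and 67.7 CPM in control hearts. The EHP-101 libraries overlapped with those of Ang II and vehicle, and losartan replicates 2 and 3 with those of the controls (-0.85 ± 0.22). Erbb3, a receptor of neuregulins, had 15.7 ± 3.01 against 23.9 ± 2.11 CPM (SD, n = 3), and Pole, the catalytic subunit of DNA polymerase epsilon, 2.22 ± 0.186 against 3.79 ± 0.284 CPM. Dkc1, a pseudouridine synthase of small nucleolar and telomerase RNA, had 16.7 ± 1.13 against 23.5 ± 1.97 CPM, and the kinase Rps6ka2 26.4 ± 2.34 against 41.7 ± 9.2 CPM. The log2 fold changes of these 4 genes were -0.61 ± 0.15, -0.77 ± 0.19, -0.50 ± 0.12 and -0.66 ± 0.16. Chp2, a calcium-binding relative of calcineurin B, the oxysterol-binding protein Osbpl6, and the kinesin Kif28 had log2 fold changes of -0.86 ± 0.18, -0.66 ± 0.16 and -1.32 ± 0.34, and Rgs7bp, which anchors RGS proteins at membranes, had 4.72 ± 1.52 against 9.47 ± 0.736 CPM. All 12 were lower in each of the 3 EHP-101 libraries than in any losartan library, as the rule that named them required.

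Most matrix genes had higher fitted levels under EHP-101. Matricellular proteins and matrix glycoproteins tune how cells grip the collagen network, and activated cardiac fibroblasts make most of them. Of 30 such genes, 28 had a higher fitted level under EHP-101, with a median log2 fold change of 0.62 beside 0.00045 over all genes. At an unadjusted p under 0.05, 17 were higher and 0 lower, beside 3.07% and 2.97% of all genes. In 10 all EHP-101 libraries exceeded all losartan libraries, beside 6.57% of all genes, with 0 the other way. None passed in edgeR over all genes, and DESeq2 called 3, Thbs4, Ltbp2 and Cilp. The count of 17 was 7 without EHP-101 replicate 3 and 7 without losartan replicate 3, which had the highest and the lowest score of this list among the 6 libraries, and the median was 0.41 without EHP-101 replicate 3. It was 9 with scaling by library size alone, and 11 higher and 1 lower with the atrial score as a covariate.

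Thbs4 (ENSMUSG00000021702, chromosome 13 from 92751590 to 92794818), a thrombospondin of stressed heart tissue, had 148, 99.7 and 178 CPM under EHP-101 and 76.2, 40.2 and 24.5 CPM under losartan. Under Ang II with vehicle it had 165, 113 and 197 CPM and in control hearts 21.1, 17.4 and 18.9 CPM. Losartan replicate 3 was close to the controls, losartan replicate 1 was the highest of its group, and no losartan library reached the lowest EHP-101 library (1.60 ± 0.35, adjusted p = 0.472 in edgeR and 0.00474 in DESeq2). Cilp, a glycoprotein of fibrotic matrix, had 272, 207 and 351 CPM under EHP-101 and 160.1, 129 and 73 CPM under losartan (1.20 ± 0.28, 0.0154 in DESeq2). Ltbp2, which binds fibrillin fibres, had 82.9, 69.1 and 139 CPM and 34.6, 35 and 18.7 CPM (1.72 ± 0.38, 0.00395 in DESeq2), and Comp, a pentameric thrombospondin that is also on the myofibroblast list, 58.2, 51.7 and 116 CPM and 22.9, 27.4 and 14.7 CPM (1.80 ± 0.54). EHP-101 replicate 3 was the highest and losartan replicate 3 the lowest library for all 4 of these genes within the treated groups. Periostin, Postn, the marker of activated cardiac fibroblasts, overlapped between the groups, with 561, 647 and 741 CPM under EHP-101 and 630.4, 297 and 149 CPM under losartan, where replicate 1 was at the EHP-101 level (0.86 ± 0.37, adjusted p = 0.793 in edgeR). Fibronectin, Fn1, and Sparc, a collagen-binding glycoprotein, overlapped too, with log2 fold changes of 0.62 ± 0.45 and 0.33 ± 0.24. Elastin, Eln, had 141, 161 and 176 CPM against 106, 198 and 109 CPM (0.21 ± 0.31), and losartan replicate 2 was the highest of these 6 libraries.

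Collagen chains form the fibrils and networks that stiffen a fibrotic heart. Of 22 chains, 19 had a higher fitted level under EHP-101 (median log2 fold change 0.27). At an unadjusted p under 0.05, 6 were higher and 0 lower, beside 3.07% and 2.97% of all genes. Groups did not overlap for 8, with EHP-101 above in 7 and below in 1, Col5a3, beside 6.57% and 6.74% of all genes. The median was 0.12 without EHP-101 replicate 3, 0.093 without losartan replicate 1 and 0.47 without losartan replicate 2. By limma-voom with quality weights it was 0.080, with 6 higher and 3 lower. Scores of the list overlapped, at 0.06, 0.28 and 0.58 under EHP-101 against -0.44, 0.17 and -0.21 under losartan. The network collagen Col8a1 was the only chain that DESeq2 called, with 133, 168 and 172 CPM under EHP-101 and 104, 91.6 and 67.6 CPM under losartan (0.85 ± 0.20, adjusted p = 0.0284). Its partner chain Col8a2 had 15.6, 8.84 and 26.8 against 7.34, 7.03 and 2.32 CPM (1.62 ± 0.48), and the fibril-associated chains Col12a1 and Col16a1 had log2 fold changes of 1.70 ± 0.45 and 0.97 ± 0.29. The major fibrillar chains stood closer together. Col1a1 had 216, 223 and 369.6 CPM under EHP-101 and 140.1, 215 and 164 CPM under losartan, so the lowest EHP-101 library exceeded the highest losartan library by less than the spread within either group (0.64 ± 0.37, adjusted p = 0.894 in edgeR). Col3a1 had 538, 796 and 934 against 512, 835 and 591 CPM and overlapped (0.23 ± 0.31). Under Ang II with vehicle the means were 395 ± 129 CPM for Col1a1 and 1453 ± 462 CPM for Col3a1 (SD, n = 3), against 113 ± 53.9 and 391 ± 127 CPM in control hearts.

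Enzymes that shape and crosslink collagen had positive log2 fold changes in 21 of 21 genes (median 0.30), from 0.14 to 1.86. Of these, 9 were higher at an unadjusted p under 0.05 and 0 lower, beside 3.07% and 2.97% of all genes. In 8 the groups did not overlap with EHP-101 above, beside 6.57% of all genes. The count of 9 was 4 without EHP-101 replicate 3 and 4 without losartan replicate 1, and the median was 0.47 without losartan replicate 3. Lysyl oxidases crosslink collagen and elastin. Loxl3 (ENSMUSG00000000693, chromosome 6 from 83034173 to 83052562) had 29, 30.8 and 41.6 CPM under EHP-101 and 17.7, 16 and 11.3 CPM under losartan (1.17 ± 0.23, adjusted p = 0.384 in edgeR and 0.00222 in DESeq2). Lox had 48.6, 52.1 and 63.6 CPM and 37, 21.7 and 9.82 CPM (1.26 ± 0.38), where losartan replicate 1 was nearest to the EHP-101 group. The prolyl hydroxylase subunit P4ha3 had 1.48, 1.26 and 1.88 against 0.604, 0.585 and 0.0843 CPM (1.86 ± 0.52), and the transglutaminase Tgm2, which crosslinks matrix proteins, 305, 437 and 301 against 235, 245 and 229.8 CPM (0.55 ± 0.16). Exons of Lox, Loxl3, Tgm2 and Ltbp2 share bases with another annotated gene, and the kit is unstranded, so these levels are uncertain to that extent.

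Small proteoglycans, which coat collagen fibrils, showed a median of 0.37 over 12 genes, with 3 higher at an unadjusted p under 0.05, 0 lower, and 3 that did not overlap. Over all genes 3.07% were higher and 2.97% lower at that p, and 6.57% did not overlap with EHP-101 above. The count of 3 became 0 without EHP-101 replicate 3 and 0 without losartan replicate 3, and the median was 0.58 without losartan replicate 2. Biglycan, Bgn, had 543, 675 and 804 CPM under EHP-101 and 394, 542 and 383 CPM under losartan, almost level at the nearest pair (0.62 ± 0.23). Matrix proteases and inhibitors were mixed, with 3 of 21 higher and 2 lower with an unadjusted p under 0.05 and a median of 0.11. Mmp2, a gelatinase, had 197, 195 and 244 against 109, 154 and 115 CPM (0.75 ± 0.22) and the metalloprotease inhibitor Timp1 16.4, 14.7 and 22.1 against 11.5, 9.49 and 5.06 CPM (1.03 ± 0.43). Without losartan replicate 1 the 3 became 5, and the median was 0.19 without EHP-101 replicate 1 and 0.042 without EHP-101 replicate 2. In the opposite direction, the urokinase Plau, which activates plasminogen, had 4.86, 3.18 and 5.17 against 6.65, 6.65 and 8.81 CPM (-0.74 ± 0.20). Of 27 TGF-beta ligands, receptors and targets, 5 were higher and 0 lower with an unadjusted p under 0.05 (median 0.26), among them the ligands Tgfb2 and Tgfb3 with log2 fold changes of 0.77 ± 0.20 and 0.69 ± 0.25. The 5 became 3 without EHP-101 replicate 1 or losartan replicate 3, 2 without EHP-101 replicate 3, 9 without EHP-101 replicate 2 and 10 without Control replicate 2. The TGF-beta target Ccn2 had 276, 323 and 296 CPM under EHP-101 and 290.5, 167 and 72.4 CPM under losartan, where replicate 1 was within the EHP-101 range (0.75 ± 0.35, adjusted p = 0.818 in edgeR).

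Markers of cells that can make this matrix had differences of unequal size. Of 18 fibroblast markers, 3 were higher and 0 lower with an unadjusted p under 0.05 (median 0.15), beside 3.07% and 2.97% of all genes. Their summed level was 3087 to 3315 CPM under EHP-101 and 2548 to 3074 CPM under losartan, with none at 0. Pi16, a marker of resident fibroblasts, had 132, 174 and 176 against 103, 130.1 and 104 CPM (0.52 ± 0.15). Without EHP-101 replicate 3 or losartan replicate 3 the 3 became 1, and the median was 0.040 without EHP-101 replicate 2. The 20 myofibroblast and smooth muscle contractile genes had a median of 0.22, with 4 higher and 0 lower (2 without EHP-101 replicate 3 and 1 without losartan replicate 3). That median was 0.11 without losartan replicate 1, 0.47 without losartan replicate 2 and 0.084 without losartan replicate 3. Pericyte and smooth muscle markers had a median of 0.06 over 13 genes with 0 at that p in either direction. Markers of cartilage and heart valve, a list that itself holds Comp, summed to 124 to 192 CPM under EHP-101 and 48.4 to 79.5 CPM under losartan and did not overlap, and Comp alone, given above, was part of each sum. Their scores, which weigh genes equally, overlapped, at 0.47, -0.40 and 0.67 against -0.39, -0.06 and -1.05. They had a median of 0.78 over 9 tested genes, 3 of which did not overlap with EHP-101 above (6.57% of all genes). None of the 12 listed genes was at 0. With the atrial score as a covariate the median was 0.50 for matricellular genes and 0.16 for collagen chains. Beyond that fit, the part of valve, fibroblast or atrial tissue in the matrix differences was not tested.

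**Figure D2:**
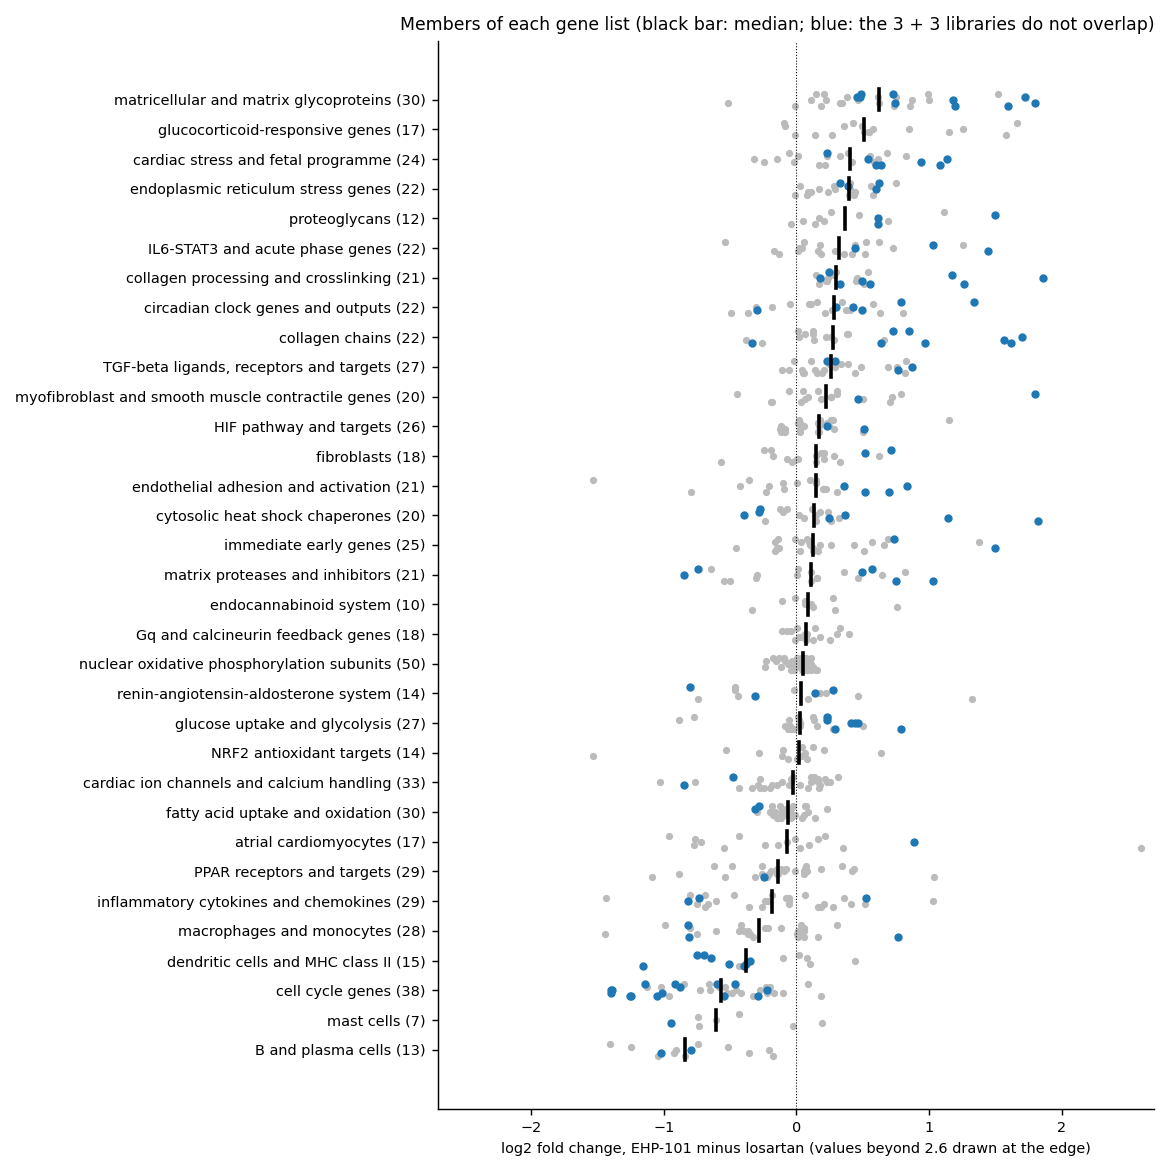
Log2 fold change, EHP-101 minus losartan, of each tested member of 33 gene lists, with the number of members in brackets, a black bar at the median, and blue for members whose EHP-101 and losartan libraries do not overlap. Medians of the lists drawn run from 0.62 for matricellular and matrix glycoproteins to -0.84 for B and plasma cell genes, and the nuclear oxidative phosphorylation subunits lie between -0.24 and 0.16.

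Several genes of heart muscle under load had higher levels under EHP-101. Of 24 cardiac stress and fetal genes, 5 were higher and 0 lower with an unadjusted p under 0.05, beside 3.07% and 2.97% of all genes. Groups did not overlap with EHP-101 above for 7 (6.57% of all genes) and with EHP-101 below for 0, and the median was 0.40. Without losartan replicate 3 the 5 became 2, without Control replicate 2 they became 9, and without EHP-101 replicate 2 the median became 0.12. Ankrd1, a stretch-responsive protein of the sarcomere, had 3126, 3804 and 2832 CPM under EHP-101 and 2220.2, 1559 and 1298 CPM under losartan, against 2525, 1905 and 2723 CPM under Ang II with vehicle and 759, 1923 and 869.7 CPM in control hearts (0.94 ± 0.32, adjusted p = 0.72 in edgeR). Myh7, the slow myosin heavy chain of the fetal ventricle, had 1721, 1128 and 1049.7 CPM and 876, 595 and 302 CPM, and in the vehicle-treated Ang II group 838, 499 and 601 CPM. All 3 EHP-101 libraries were above all libraries of Ang II with vehicle, and the losartan libraries overlapped with those (1.14 ± 0.42, adjusted p = 0.744 in edgeR). Enah, an actin regulator of the intercalated disc, had 254, 404 and 273 against 206, 191 and 199.9 CPM (0.64 ± 0.17) and the small heat shock protein Hspb7 2785, 3993 and 2835 against 2041, 2259.7 and 2056 CPM (0.60 ± 0.20). EHP-101 replicate 2 was the highest library for Ankrd1, Enah and Hspb7.

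The natriuretic peptides gave no such separation. Nppa, which atrial muscle also makes, had 271, 368 and 335 CPM under EHP-101 and 184, 614 and 42.9 CPM under losartan (0.21 ± 0.67, adjusted p = 0.999 in edgeR), and the losartan libraries spanned the whole EHP-101 range. The atrial marker list itself holds Nppa, Myl7 and Bmp10, so its score is not independent of these genes. Under losartan the order of the libraries by Nppa was that of the atrial score. Under EHP-101 the library with the lowest atrial score, replicate 2, had the highest Nppa. Myl7, the atrial myosin light chain, had 40.4, 479 and 3.67 CPM in the same losartan libraries and 77.8, 24.7 and 204 CPM under EHP-101, and the part of atrial tissue in these values was not tested. The atrial growth factor Bmp10 had 1.65, 0.14 and 135 CPM under EHP-101 and 1.02, 0.711 and 0.0422 CPM under losartan, so EHP-101 replicate 3 alone held most of its reads. Nppb had 322, 595 and 465 against 427, 277 and 214 CPM (0.59 ± 0.69) and the adult myosin heavy chain Myh6 a log2 fold change of 0.01 ± 0.30. Cardiac ion channels and calcium handling genes had a median of -0.03 over 33 genes. With an unadjusted p under 0.05, 0 were higher and 1 lower, the Scn4b given above, beside 3.07% and 2.97% of all genes. Emp1, a membrane protein of the peripheral myelin protein family, and the actin-binding protein Synpo were called by DESeq2 with 222, 225 and 248 against 142, 136 and 134 CPM and 166, 177 and 173 against 134, 121 and 112 CPM (adjusted p = 0.0166 and 0.0137). Sprr1a, a stress-induced cardiomyocyte gene also called by DESeq2, had 3.72, 4.68 and 3.02 CPM under EHP-101 and 1.12, 0.878 and 0.0843 CPM under losartan, where replicate 3 was near 0 (adjusted p = 0.028).

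Most cell division genes had lower fitted levels under EHP-101. Of 38 genes of DNA replication and mitosis, 36 had a lower fitted level (median log2 fold change -0.57), 11 at an unadjusted p under 0.05 (2.97% of all genes), and 15 did not overlap with EHP-101 below (6.74% of all genes), while 0 were higher by either measure. The count of 11 was 5 without EHP-101 replicate 1, 5 without EHP-101 replicate 2, 7 without losartan replicate 2 and 2 without losartan replicate 3, and 19 without Control replicate 2. Over all genes the 456 lower ones became 485, 323, 368, 358 and 833 in the same fits. The count of 11 was 7 with the atrial score as a covariate. At a mean of at least 5 CPM only 13 of these genes were tested, and 4 were lower. None of the 38 passed in edgeR or DESeq2 over all genes. Top2a, the topoisomerase that untangles DNA before mitosis, had 1.02, 3.65 and 3.41 CPM under EHP-101 and 6.18, 6.69 and 8.31 CPM under losartan, with 6.99, 7.14 and 13.8 CPM under Ang II with vehicle and 5.55, 11.2 and 6.47 CPM in control hearts. EHP-101 replicate 1 was the lowest and the 3 EHP-101 libraries were below the other 9 (-1.40 ± 0.42, adjusted p = 0.622 in edgeR). Mki67, the proliferation antigen Ki-67, had 1.14, 5.66 and 6.44 against 7.48, 9.79 and 14.1 CPM (-1.25 ± 0.47), the mitotic kinase Cdk1 0.296, 1.03 and 1.23 against 1.86, 1.59 and 3.25 CPM (-1.40 ± 0.65) and its partner cyclin Ccnb2 0.296, 0.514 and 0.876 against 1.12, 0.962 and 1.64 CPM (-1.14 ± 0.57). Rrm2, a subunit of ribonucleotide reductase, had 1.23, 1.12 and 2.41 against 2.88, 3.22 and 2.91 CPM (-0.92 ± 0.31).

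Promoters of such genes are known for CCAAT boxes, bound by NF-Y, and for the cell cycle genes homology region, written TTTGAA, bound by the DREAM and MuvB complexes. Both motifs were searched on both strands in the 250 bases before each RefSeq start site of GRCm38.p6. Of 33 promoters of 30 matched genes of the list, 30.3% held both motifs, as did 6 of the 12 promoters (50%) of the 11 genes matched among those that did not overlap. For comparison, 5.55% of all 32851 promoters and 3.97% of the 14411 promoters of tested genes held both. CCAAT, with or without TTTGAA, was in 81.8% of the promoters of the list and 33.8% of all promoters, and TTTGAA in 30.3% and 16%. A match is a run of letters and not a site that was measured. The higher share in the list was known beforehand from the kind of genes it holds. The 12 promoters were taken by the levels in these same libraries. Any link between the motifs and the difference between the groups was not tested. The promoters of Top2a, Cdk1 and Ccnb2 are printed because they hold both motifs and belong to genes whose groups did not overlap. They were chosen after the levels were seen, each reads 5′ to 3′ towards its gene on the minus strand, and the capitals mark both motifs in either orientation, which do not overlap each other. Their positions are chr11:99024190-99024439 for Top2a, chr10:69352913-69353162 for Cdk1 and chr9:70421555-70421804 for Ccnb2.
Top2a: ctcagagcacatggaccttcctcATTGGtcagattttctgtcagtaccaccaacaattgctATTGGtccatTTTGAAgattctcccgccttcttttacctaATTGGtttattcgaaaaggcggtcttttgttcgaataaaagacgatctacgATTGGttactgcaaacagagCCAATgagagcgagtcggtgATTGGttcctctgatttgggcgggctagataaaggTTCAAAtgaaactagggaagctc
Cdk1: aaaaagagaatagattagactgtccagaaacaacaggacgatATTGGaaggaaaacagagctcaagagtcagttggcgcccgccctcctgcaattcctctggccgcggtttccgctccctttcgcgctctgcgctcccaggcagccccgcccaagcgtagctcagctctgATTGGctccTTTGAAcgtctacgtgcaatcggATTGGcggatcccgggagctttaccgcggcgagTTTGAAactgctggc
Ccnb2: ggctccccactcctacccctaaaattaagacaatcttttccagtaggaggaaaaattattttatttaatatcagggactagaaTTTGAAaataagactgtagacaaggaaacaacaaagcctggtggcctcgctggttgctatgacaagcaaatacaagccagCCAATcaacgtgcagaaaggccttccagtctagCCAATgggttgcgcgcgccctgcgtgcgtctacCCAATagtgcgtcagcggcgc
In these windows Top2a held 6 CCAAT boxes and 2 TTTGAA motifs, Cdk1 3 and 2, and Ccnb2 3 and 1.

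Most genes of antigen presentation had lower fitted levels under EHP-101 as well, as did those of B cells. Class II histocompatibility molecules present peptides to helper T cells on dendritic cells, macrophages and B cells. Of 15 genes of dendritic cells and class II, 4 were lower and 0 higher at an unadjusted p under 0.05 (median -0.38), beside 2.97% and 3.07% of all genes. In 8 the groups did not overlap with EHP-101 below and in 0 with EHP-101 above, beside 6.74% and 6.57% of all genes. The 4 became 0 without EHP-101 replicate 2, 1 without losartan replicate 2, 2 without losartan replicate 1 and 7 without Ang II replicate 3. Cd74, the invariant chain that escorts class II molecules, had 62.3, 55.7 and 58.5 CPM under EHP-101 and 83.5, 89.7 and 77.8 CPM under losartan, against 109.8, 113 and 163 CPM under Ang II with vehicle and 115, 74.1 and 73.1 CPM in control hearts. Both treated groups were below every library of Ang II with vehicle, and the EHP-101 libraries were also below every control library (-0.51 ± 0.19, adjusted p = 0.744 in edgeR). The class II chains H2-Aa, H2-Ab1 and H2-Eb1 had log2 fold changes of -0.40 ± 0.22, -0.38 ± 0.18 and -0.35 ± 0.19, and the peptide loading chains H2-DMa and H2-DMb1 -0.65 ± 0.24 and -0.70 ± 0.29. Cd209a, a dendritic cell receptor, did not separate the groups, with 0.888, 0.701 and 0.525 CPM under EHP-101 and 0.883, 0.669 and 0.464 CPM under losartan.

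All 13 B and plasma cell genes tested had a negative log2 fold change (median -0.84). With an unadjusted p under 0.05, 6 were lower and 0 higher, beside 2.97% and 3.07% of all genes. In 2 the groups did not overlap with EHP-101 below, beside 6.74% of all genes. Without EHP-101 replicate 1 the 6 became 3, without EHP-101 replicate 2 they became 2 and without losartan replicate 2 they became 0, with a median of -0.48. The score of the list overlapped between the groups, at -0.54, -1.14 and -0.11 under EHP-101 against -0.18, 0.65 and -0.12 under losartan. Losartan replicate 2 had the highest sum of B cell markers. The sums were 12.9 to 24.3 CPM under EHP-101 and 26.7 to 55.5 CPM under losartan, with none of 14 markers at 0. Ighm, the heavy chain of IgM, had 11.8, 5.19 and 10.4 CPM and 13.1, 29.3 and 13.4 CPM (-1.02 ± 0.34), and Cd79a, part of the B cell receptor, 0.677, 0.187 and 0.525 against 0.604, 1 and 1.05 CPM from 4 to 25 reads a library (-0.92 ± 0.41). Among 28 macrophage and monocyte genes, 1 was higher and 3 lower with an unadjusted p under 0.05 (median -0.28), with 8 lower without EHP-101 replicate 1 and 1 without EHP-101 replicate 3. That median was -0.43 without EHP-101 replicate 1, -0.076 without EHP-101 replicate 3 and -0.077 without losartan replicate 1. Their summed levels overlapped, at 348 to 621 and 531 to 734 CPM. Folr2, a folate receptor of resident macrophages, had 8.97, 8.42 and 3.98 against 12.5, 12.3 and 12.7 CPM (-0.81 ± 0.25), and Gpnmb, a glycoprotein of lipid-laden macrophages, 6.89, 5.89 and 5.21 against 4, 4.47 and 2.11 CPM in the opposite direction (0.77 ± 0.33). Retnla, a marker of alternatively activated macrophages, had 1.99, 0.281 and 0.876 against 3.63, 3.39 and 1.69 CPM, with overlap through EHP-101 replicate 1. T and NK cell genes had a median of -0.26 over 8 tested genes and mast cell genes -0.61 over 7, the latter with 1 lower and 0 higher (0 lower and a median of -0.37 without losartan replicate 3). Cpa3, the mast cell carboxypeptidase, had 0.888, 0.888 and 0.525 against 1.16, 1.25 and 2.02 CPM (-0.95 ± 0.35).

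Few cytokine genes stood apart. Of 29 inflammatory cytokines, chemokines and receptors, 0 were higher and 2 lower with an unadjusted p under 0.05 (median -0.19), beside 3.07% and 2.97% of all genes. With the replicate block 5 were lower. The median was -0.076 without EHP-101 replicate 1, -0.067 without losartan replicate 1 and -0.29 without losartan replicate 3. The monocyte chemokine Ccl2 had 1.82, 0.795 and 2.32 against 2.32, 2.76 and 3.63 CPM, almost level at the nearest pair (-0.81 ± 0.41). Acute phase genes of the IL-6 pathway leaned the other way, with 4 of 22 higher and 0 lower and a median of 0.32 (2 higher without EHP-101 replicate 2 or losartan replicate 3, and a median of 0.18 without the former). Serpina3n, a secreted protease inhibitor, had 66.6, 147 and 62.3 CPM under EHP-101 and 54.9, 25.2 and 21.2 CPM under losartan, where EHP-101 replicate 2 was highest (1.44 ± 0.44). Socs3, the feedback inhibitor of that pathway, had 7.82, 10.1 and 8.76 against 7.53, 6.27 and 5.82 CPM (0.44 ± 0.15). Among endothelial genes, endothelin, Edn1, a vasoconstrictor peptide, had 9.3, 9.35 and 9.37 against 7.2, 5.39 and 4.68 CPM (0.70 ± 0.19), and its receptor Ednrb a log2 fold change of 0.36 ± 0.12. Apelin, Apln, a peptide that opposes Ang II in vessels, had 5.29, 7.15 and 11.5 CPM under EHP-101 and 9.25, 25.9 and 34.1 CPM under losartan, where replicate 1 lay inside the EHP-101 range (-1.54 ± 0.42, adjusted p = 0.0736 in DESeq2).

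**Figure D3:**
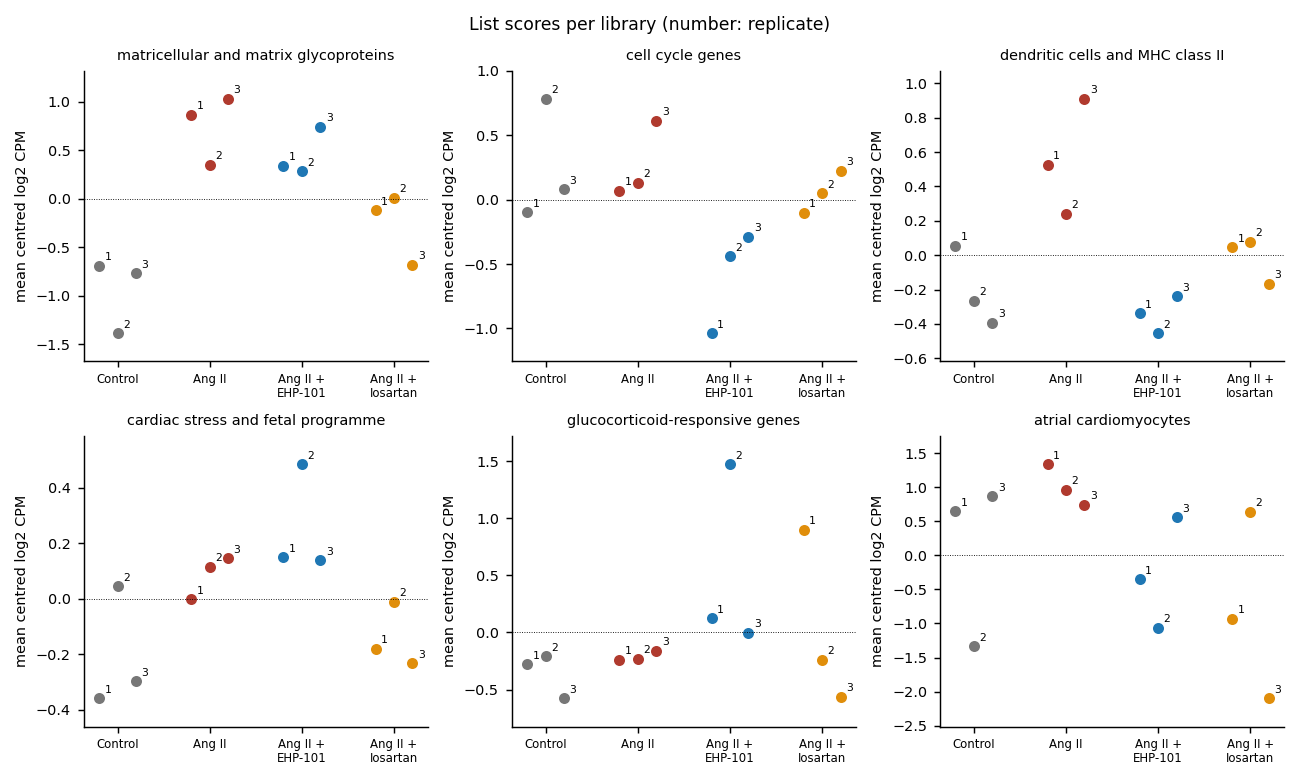
Mean centred log2 CPM of 6 gene lists in each library, one panel a list, with the replicate number beside each point and groups on the horizontal axis. EHP-101 and losartan libraries do not overlap for the matricellular, cell cycle, class II and cardiac stress lists, while EHP-101 replicate 2 and losartan replicate 1 stand out for glucocorticoid-responsive genes and losartan replicate 3 is lowest for atrial genes.

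The tested genes of the receptors that the drugs act on overlapped between the groups, and the lists of their pathways had small medians. Single members ran further, from -0.80 to 1.32 in the renin list. The range was -1.09 to 1.04 in the PPAR list and -1.53 to 0.64 in the NRF2 list. Agtr1a, the main AT1 receptor gene, had 34.5, 30.3 and 28.5 CPM under EHP-101 and 32.5, 31.5 and 30.4 CPM under losartan (log2 fold change -0.02 ± 0.13, adjusted p = 0.999 in edgeR). Agtr1b, with 2 reads over all 12 libraries, Agtr2, with 2, and renin, Ren1, with 19, had too few reads to be tested. Of 14 tested genes of the renin-angiotensin-aldosterone system, 2 were higher and 1 lower with an unadjusted p under 0.05 (median 0.03), beside 3.07% and 2.97% of all genes. The lower one was the Mme given above. Angiotensinogen, Agt, had 4.19, 18.1 and 5.38 CPM under EHP-101 and 4.83, 3.64 and 2.57 CPM under losartan, so EHP-101 replicate 2 was far above the other 5 libraries (1.32 ± 0.45). The converting enzyme Ace had 100.2, 179.5 and 125 against 83.8, 106 and 104 CPM (0.46 ± 0.21), and overlapped at its lowest EHP-101 library. Feedback genes of Gq and calcineurin signalling, which AT1 drives, had a median of 0.07 over 18 genes with 1 higher and 0 lower. Counts of 1 or 2 genes in such a list moved by over 1.5 times when single libraries were left out, as with the 2 of the renin list, which became 0 without EHP-101 replicate 2 or losartan replicate 3. Rgs2, a brake on Gq, had a log2 fold change of 0.12 ± 0.23 and Rcan1, an inhibitor of calcineurin, 0.33 ± 0.38.

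On the side of EHP-101, the PPARγ gene Pparg had 10.7, 16.9 and 9.98 CPM under EHP-101 and 13.5, 12 and 10 CPM under losartan (0.08 ± 0.21). PPAR receptors and targets had a median of -0.14 over 29 genes. With an unadjusted p under 0.05, 0 were higher and 2 lower, beside 3.07% and 2.97% of all genes. Among the targets, Cd36, the fatty acid transporter, had a log2 fold change of -0.15 ± 0.18, the fatty acid binding protein Fabp4 -0.21 ± 0.24 and the lipase inhibitor Angptl4 -0.10 ± 0.58. Losartan replicate 1 stood apart for several targets. Without it the values were 0.070 for Cd36, 0.075 for Fabp4 and 0.73 for Angptl4. Of the whole list, 3 were then higher and 0 lower at that p, with a median of 0.08. Without EHP-101 replicate 3, 2 were higher and 0 lower. Pdk4, a kinase that shuts off glucose oxidation, had 2811, 423 and 293 CPM under losartan against 657, 589 and 665 CPM under EHP-101, and without that library its log2 fold change went from -0.88 to 0.83. The CB2 gene Cnr2 had 0.719, 1.17 and 0.569 against 1.16, 0.92 and 1.01 CPM (-0.33 ± 0.32), and Cnr1, with 47 reads over 12 libraries, was not tested. The 10 tested genes of the endocannabinoid system had a median of 0.09 and 0 passed an unadjusted p of 0.05 in either direction. Genes of the HIF pathway, which the compound class is also known to engage, had a median of 0.17 over 26 genes (0.073 without EHP-101 replicate 2 and 0.082 without losartan replicate 1), with 1 higher and 0 lower, Ndrg1, at 48.1, 78.9 and 46.8 against 40.3, 42.2 and 39.6 CPM (0.51 ± 0.17). NRF2 antioxidant targets had a median of 0.02 over 14 genes with 0 in either direction, and Hmox1, the haem oxygenase, had 88.2 CPM in losartan replicate 1 against 9.36 to 14.5 CPM in the other 5 libraries.

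Energy metabolism showed mostly small differences. Nuclear subunits of oxidative phosphorylation had a median of 0.05 over 50 genes, with 0 at an unadjusted p under 0.05 and 0 whose groups did not overlap in either direction. Fatty acid uptake and oxidation genes had a median of -0.06 over 30 genes (-0.15 to -0.022 with single libraries left out), with 0 at that p. In 2 the groups did not overlap with EHP-101 below, Acsl1 and Acad11, which is about the share of all genes (6.74%). Of 27 genes of glucose uptake and glycolysis, 3 were higher and 0 lower at that p, beside 3.07% and 2.97% of all genes. In 7 the groups did not overlap with EHP-101 above, beside 6.57% of all genes. Without EHP-101 replicate 3 or Control replicate 2 the 3 became 6, and without losartan replicate 2 they became 5. Hk1, the hexokinase that starts glycolysis, had 306, 254 and 246 CPM under EHP-101 and 153, 209.6 and 221 CPM under losartan (0.46 ± 0.15), the phosphofructokinase Pfkp 104, 136 and 98.6 against 77.7, 83.5 and 87.9 CPM (0.44 ± 0.15) and the lactate exporter Slc16a3 4.06, 4.35 and 4.2 against 2.51, 2.22 and 2.57 CPM (0.79 ± 0.23). Bcat1, the cytosolic transaminase of branched-chain amino acids, was called by DESeq2 with 2.16, 6.83 and 2.85 against 0.883, 1.25 and 1.48 CPM (adjusted p = 0.028), and EHP-101 replicate 2 was its highest library.

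Genes that follow stress hormones and the time of day varied between libraries of the same group. Glucocorticoid-responsive genes had a median of 0.51 over 17 genes, and 0 whose groups did not overlap. With an unadjusted p under 0.05, 2 were higher and 0 lower, beside 3.07% and 2.97% of all genes. The 2 became 0 without EHP-101 replicate 2 and 8 without losartan replicate 1. Fkbp5, a chaperone that glucocorticoids induce, had 36, 239 and 27.2 CPM under EHP-101 and 63.6, 18.9 and 18.7 CPM under losartan, so EHP-101 replicate 2 and losartan replicate 1 were the highest of their groups. The median was -0.15 without EHP-101 replicate 2 and 1.08 without losartan replicate 1. Of 22 clock genes and outputs, 2 were higher and 0 lower (median 0.28). In 5 the groups did not overlap with EHP-101 above and in 1 with EHP-101 below, beside 6.57% and 6.74% of all genes. The 2 became 1 without EHP-101 replicate 3 or losartan replicate 3 and 4 without Control replicate 2 or 3. Per2, a repressor of the clock that glucocorticoids also induce, had 30.2, 27.6 and 20.6 CPM under EHP-101 and 15.2, 10.5 and 5.19 CPM under losartan, against 6.95, 6.4 and 6.22 CPM under Ang II with vehicle (1.34 ± 0.44), while Clock, an activator, had 75, 87.4 and 76.1 against 97.1, 89.5 and 106 CPM (-0.30 ± 0.14). The labels give no time of day for the collection of hearts, and its part was not tested.

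Endoplasmic reticulum stress genes, a list of folding chaperones and of regulators of the stress response, had a higher fitted level under EHP-101 in 21 of 22 genes (median 0.39). With an unadjusted p under 0.05, 7 were higher and 0 lower, beside 3.07% and 2.97% of all genes. In 4 the groups did not overlap with EHP-101 above, beside 6.57% of all genes. The 7 became 1 without EHP-101 replicate 1, 4 without EHP-101 replicate 2, 11 without EHP-101 replicate 3, 3 without losartan replicate 1 and 2 without losartan replicate 2. Chac1, a glutathione-degrading enzyme of that response, had 5.5, 5.52 and 5.43 CPM under EHP-101 and 4.14, 2.97 and 3.58 CPM under losartan (0.62 ± 0.20), and the lumenal chaperone Calr 320.3, 327 and 283 against 185, 232 and 285 CPM, with overlap between EHP-101 replicate 3 and losartan replicate 3 (0.41 ± 0.16). Manf, a secreted survival factor of the same response, overlapped through the same libraries (0.75 ± 0.26). Among immediate early genes 4 of 25 were higher and 0 lower (median 0.12, with 2 higher without EHP-101 replicate 1 or losartan replicate 3), and the orphan receptor Nr4a3 had 12.1, 11.2 and 4.33 against 1.67, 4.14 and 3.88 CPM. A list of 20 heat shock chaperones was mostly cytosolic but also held the mitochondrial Hspd1 and Hspe1. Of these 20, 2 were higher, Hspa1a and Hspa1b. The 2 lower ones were Fkbp4 and Hspd1, with log2 fold changes of -0.40 ± 0.17 and -0.28 ± 0.13.

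Set beside the vehicle-treated Ang II libraries, which serve as the common reference of both treatments, the genes named for the smallest p showed different patterns of level. No gene passed in edgeR for EHP-101 against Ang II (0%, with 1108 at an unadjusted p under 0.05) or for losartan against Ang II (0%, with 1289). For Frzb the log2 fold change against Ang II was -0.07 ± 0.25 with EHP-101 and -1.38 ± 0.26 with losartan. The pair was for Loxl3 0.01 ± 0.22 and -1.17 ± 0.23, and for Smad6 -0.17 ± 0.15 and -1.04 ± 0.15, so for these genes the distance to Ang II lay mostly on the losartan side. Pla2g2d was the opposite, with -2.02 ± 0.37 and 0.40 ± 0.31, and Chp2 had -0.91 ± 0.18 and -0.05 ± 0.17. Mthfd1l stood apart on both sides, with 0.77 ± 0.20 for EHP-101 and -0.87 ± 0.22 for losartan, as did Hspa1a with 0.87 ± 0.34 and -0.95 ± 0.37. Among the lists, the medians against Ang II were -0.31 with EHP-101 and -0.97 with losartan for matricellular genes, and -0.38 and -0.74 for collagen chains. For cell cycle genes they were -0.83 and -0.26, for class II genes -1.15 and -0.62, and for B cell genes -1.07 and -0.22. Each pair of values shares the same 3 Ang II libraries, so the values of a pair are not independent.

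**Figure D4:**
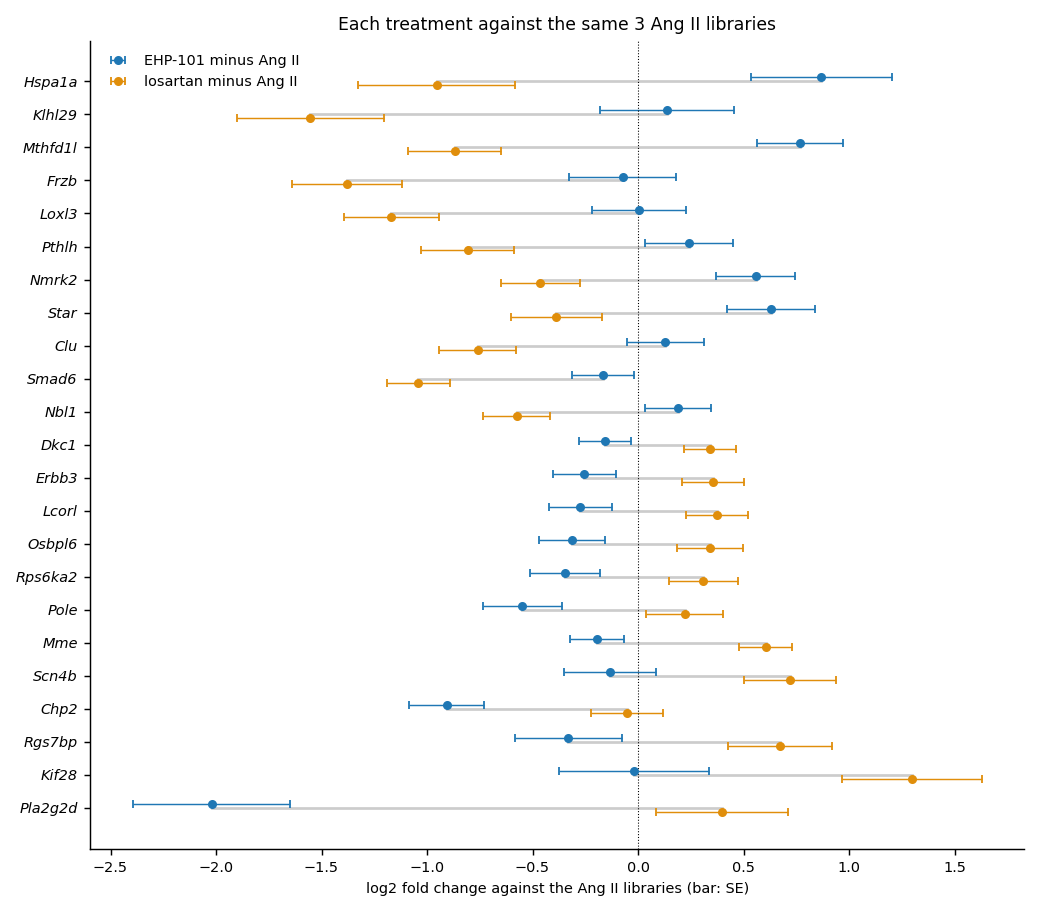
Log2 fold change against the vehicle-treated Ang II libraries with its SE, in blue for EHP-101 and in orange for losartan, for 11 higher and 12 lower genes, joined by a grey line. The losartan point is the more distant from 0 for Frzb, Loxl3, Smad6, Mme and Scn4b, and the EHP-101 point for Pla2g2d and Chp2.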

How the data were processed

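Mouse heart RNA was sequenced in 12 libraries, 3 a group, as single-end reads of unstranded poly(A) libraries. The table deposited by the authors holds raw counts of reads per gene, and the submitters' processing notes name fastp 0.20.0, HISAT2 2.1.0, featureCounts 2.0.0, edgeR 3.30.0 and GRCm38. From these counts, genes were filtered with filterByExpr by group, scaled by TMM and fitted in edgeR 4.0.16 (R 4.3.3) over all 12 libraries with the robust quasi-likelihood test. The contrast was EHP-101 minus losartan, with p-values adjusted over 15336 genes by the Benjamini-Hochberg method, a threshold of 0.05 and a biological coefficient of variation of 0.189. The SE is the log2 fold change divided by the root of the F statistic, so it restates the test. DESeq2 1.42.0, which gave an adjusted p for 15256 genes, and limma 3.58.1 were alternatives, as were other scalings and filters, a replicate block, marker scores as covariates and fits without each library. The exact permutation test of 3 libraries against 3 cannot go below p = 0.1 and was not used.

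Named genes were the 12 higher and 12 lower with the smallest p among genes without overlap at a mean of at least 1 CPM, leaving out predicted genes. To these were added up to 4 members of each described list by smallest p, a set of genes for matrix, heart muscle and drug receptors, and the genes DESeq2 called. Others, such as those on which 1 library stood apart, were named after their values were seen. The comparison, lists and markers were chosen with earlier results of these data known. Of 201 such genes, 56 share exon bases with another gene in the annotation (GENCODE M21, GRCm38), where an unstranded library cannot separate the reads. Of the genes these rules name, 2 are not reported here. Promoter sequences are from RefSeq, GRCm38.p6. All replicates of a group differed by more than counting noise, and each was counted as 1 sample. The procedure was tested on simulated counts with known changes.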

Additional observations from a re-analysis of the deposited data

How the results depend on the processing

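The count of 0 genes between EHP-101 and losartan in edgeR became 26 in DESeq2, 2 in limma-voom with quality weights (Pla2g2d and Mthfd1l), 3 with no filter on low counts (Pla2g2d and Nmrk2 among them) and 3 with the epicardial score as a covariate (Pla2g2d, Mthfd1l and Klhl29). It ran from 0 to 2 with single libraries left out, and the 2 arose without Control replicate 2. It was 0 under the remaining 7 alternatives (RLE size factors, library size alone, limma-voom, 5 CPM or more on average, the replicate block, only these groups and the atrial score). Replicate numbers did not pair the libraries, since deviations of libraries with the same number correlated at 0.02, -0.23 and 0.05. With the replicate block, 0 genes were called and the lowest adjusted p was 0.4233. Genes without overlap numbered 3231 to 4393 with one treated library left out, against 2041 with all, because fewer libraries separate more easily. Over 201 named genes and 4579 recomputed values, 4493 kept direction and side of the threshold, 36 passed it and 50, in 25 genes, changed sign. Of 759 list medians, 24 changed sign. Counts over lists by an unadjusted p, recomputed after the data were seen, also moved by over 1.5 times. This was so with library size alone (proteoglycans 1, TGF-beta genes 3, endoplasmic reticulum stress 4) and with quality weights (cell cycle 20, class II 2, endoplasmic reticulum stress 11). With quality weights the counts over all genes rose too, to 827 higher and 844 lower. At 5 CPM or more fewer genes were tested, and the counts were 3 of 23 TGF-beta genes, 1 of 5 in class II and 1 of 1 in B cells. Counts moved with the replicate block (TGF-beta genes 3, macrophages 6, cytokines 5) and with only these groups (glycolysis 5, class II 7, B cells 1). They also moved by limma-voom (immediate early genes 2), by DESeq2 (proteases 5), with no filter (proteoglycans 1) and with the atrial score (cardiac stress 8, glycolysis 5). The values that changed sign follow as log2 fold changes, or medians of them for a list, and the cause was not tested.

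The value was -0.037 for Col3a1, -0.10 for Myh6, 0.0092 for Agtr1a, -0.037 for Vegfa, 0.023 for Sln, 0.49 for Pdk4, 0.47 for Angptl4, 0.0088 for Cd36, 0.017 for Hmox1, -0.011 for Eln, 0.015 for PPAR receptors and targets and 0.0030 for fatty acid uptake and oxidation with quality weights. With library size alone it was -0.029 for Myh6, -0.0043 for Vegfa, -0.0070 for NRF2 targets and -0.0011 for glycolysis. With the atrial score as a covariate it was -0.072 for Myh6 and with the replicate block 0.0023 for Angptl4. Limma-voom gave 0.81 for Myl7, 1.11 for Sln, 0.86 for Mybphl and 0.15 for atrial markers, and the epicardial score as a covariate 0.24 for Myl7, 0.12 for Sln, 0.16 for Mybphl, 0.043 for ion channels and 0.12 for atrial markers.

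With single libraries left out, log2 fold changes ranged over -0.30 to 1.52 for Nppa, -0.17 to 0.15 for Myh6, -0.10 to 0.039 for Agtr1a, -0.20 to 0.22 for Pparg, -0.021 to 0.34 for Rgs2, -0.19 to 0.29 for Vegfa, -1.77 to 2.22 for Myl7 and -1.82 to 2.05 for Sln. The ranges were -1.34 to 0.83 for Pdk4, -0.70 to 0.73 for Angptl4, -0.27 to 0.070 for Cd36, -0.35 to 0.075 for Fabp4, -0.00050 to 0.65 for Dusp5, -0.13 to 0.52 for Napepld, -1.99 to 0.36 for Hmox1 and -0.78 to 0.080 for Gclm, and -1.40 to 0.19 for Gja5, -0.094 to 2.42 for Fkbp5, -0.15 to 0.85 for Nfkbia, -1.89 to 2.22 for Mybphl, -0.045 to 0.33 for Lum, -0.98 to 2.26 for Mt2 and -0.13 to 0.31 for Cd209a. List medians ranged over -0.067 to 0.083 for the renin-angiotensin list, -0.21 to 0.075 for PPAR receptors and targets, -0.061 to 0.10 for NRF2 targets, -0.17 to 0.13 for ion channels, -0.018 to 0.091 for oxidative phosphorylation subunits, -0.15 to 1.08 for glucocorticoid-responsive genes, -0.027 to 0.21 for immediate early genes and -0.23 to 1.07 for atrial markers.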

Other observations

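Some gene groups that no comparison above describes had small differences between EHP-101 and losartan. The 15 mitochondrially encoded genes had a median log2 fold change of -0.04, from -0.17 to 0.18, with 0 higher and 0 lower by an unadjusted p under 0.05. The 30 interferon-stimulated genes had a median of -0.02 and also 0 in either direction, and Ifit2, an interferon-induced RNA-binding protein, was the only one without overlap. Hemoglobin and other red blood cell genes were higher in the fit for 7 of 7 tested genes (median 0.32), but their sums overlapped, at 406 to 556 CPM under EHP-101 and 266 to 623 CPM under losartan. White adipocyte markers summed to 86.8 to 154 CPM and 75.4 to 241 CPM, with losartan replicate 2 highest. Skeletal muscle markers reached 3267 CPM in EHP-101 replicate 2, against 1578 to 2098 CPM in the other 5 treated libraries. Epicardial markers had a median of -0.33 over 14 genes, with sums of 261 to 345 CPM and 202 to 440.1 CPM.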
